A study of Mus musculus with 36 samples.

Results

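The genes described here make cholesterol and its precursors or control that synthesis: the enzymes Hmgcs1, Idi1, Fdft1 and Sqle, the transcription factor genes Srebf1 and Srebf2, and the inhibitors Insig1 and Insig2. Members were the probe sets annotated to these single symbols, and 7 of the 8 genes were measured, by 17 of the 22690 probe sets on the array. No probe set was named Insig1 in the annotation used here, so Insig1 expression was not analysed here. The measured members were 7 of 12393 named genes, each taken as the mean of its probe sets: 4 for Hmgcs1, 4 for Fdft1, 3 for Insig2, 2 for Idi1, 2 for Srebf2, and 1 each for Sqle and Srebf1.

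The hearts came from mice with transverse aortic constriction (TAC), a surgical narrowing of the aorta that makes the left ventricle pump against high pressure, and from mice with SHAM surgery. Left ventricles were taken 8 weeks after surgery at 6 Zeitgeber times (ZT), ZT03, ZT07, ZT11, ZT15, ZT19 and ZT23, from 3 mice per surgery and time, with 1 Affymetrix array per mouse and 36 arrays in all. Strain, sex, age and lighting were not given in the sources used here. In each surgery separately, the deposited values of every probe set had a median of 0 over the 18 arrays, so a value says how far a mouse lay above or below the middle mouse of its own surgery, and TAC and SHAM levels could not be set against each other. The values were read as log2, although the base is not stated, and raw signals were not used here, so which genes lay near background could not be judged.

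Cholesterol is built from acetyl-CoA through mevalonate, isoprenoid units, squalene and lanosterol. When membranes of the endoplasmic reticulum hold little sterol, the escort protein SCAP carries SREBP precursors to the Golgi, where proteases release a factor that binds sterol response elements and raises the synthesis genes; with ample sterol, INSIG proteins hold SCAP back. The heart both makes cholesterol and takes it up from lipoproteins, and Srebf1 also drives fatty acid synthesis genes in liver and fat.

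The promoter sequences below were searched for the letters TCACCCCA, a core of the sterol response element, through which SREBP factors are known to act. They are the 250 bases upstream of a RefSeq start site on mouse GRCm38.p6, 5′ to 3′ on the gene's strand: Hmgcs1 at chr13:119690101-119690350 (+), Srebf2 at chr15:82147019-82147268 (+), Idi1 at chr13:8885356-8885605 (+), and the most upstream of 3 Insig2 start sites at chr1:121332590-121332839 (-). Capitals mark the element core TCACCCCA and the CCAAT box (CCAAT, or ATTGG on the other strand).
Hmgcs1: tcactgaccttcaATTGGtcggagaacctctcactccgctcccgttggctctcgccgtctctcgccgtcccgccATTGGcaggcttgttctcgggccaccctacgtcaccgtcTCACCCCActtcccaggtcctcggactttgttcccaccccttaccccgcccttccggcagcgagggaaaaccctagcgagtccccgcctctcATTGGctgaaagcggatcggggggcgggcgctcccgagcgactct
Srebf2: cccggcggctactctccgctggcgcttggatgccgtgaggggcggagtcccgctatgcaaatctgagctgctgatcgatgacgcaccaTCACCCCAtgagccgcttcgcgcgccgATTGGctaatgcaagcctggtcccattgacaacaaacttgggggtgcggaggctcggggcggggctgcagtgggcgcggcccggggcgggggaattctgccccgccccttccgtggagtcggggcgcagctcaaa
Idi1: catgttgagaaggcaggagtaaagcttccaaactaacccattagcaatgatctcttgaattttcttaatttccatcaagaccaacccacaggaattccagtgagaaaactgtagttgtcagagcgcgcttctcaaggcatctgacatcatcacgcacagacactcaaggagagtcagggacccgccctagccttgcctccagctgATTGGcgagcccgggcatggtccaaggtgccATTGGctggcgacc
Insig2: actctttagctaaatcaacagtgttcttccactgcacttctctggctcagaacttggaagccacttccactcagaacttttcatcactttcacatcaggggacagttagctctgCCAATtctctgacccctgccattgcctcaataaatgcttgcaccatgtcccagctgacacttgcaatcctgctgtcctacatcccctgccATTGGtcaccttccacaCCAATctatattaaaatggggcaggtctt

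TCACCCCA was searched on both strands and was found in Hmgcs1, 137 to 130 bases before the start, and in Srebf2, 162 to 155 bases before it. It was not found in these windows of Idi1, Srebf1 (3 start sites), Insig2 (3 start sites) or Insig1 (1 start site). Of 32851 such windows, 441 (1.34%) held it. Only these exact letters were searched, so their absence does not show that a promoter lacks a sterol response element. CCAAT boxes, bound by NF-Y, numbered 3 in Hmgcs1, 2 in Idi1, 1 in Srebf2 and 3 in the printed Insig2 window, and 33.8% of all windows held at least 1. The E-box CACGTG, bound by clock and other helix-loop-helix factors, was in no window searched of the measured members, against 6.02% of all windows. These windows were few, so its absence from them says little. The promoter of Insig1, the member not measured, held CACGTG 101 to 96 bases before the start. The nuclear receptor half-site AGGTCA was found once among the measured members, in Hmgcs1 and on the opposite strand, against 14.0% of all windows. Insig1 held AGGTCA 105 to 100 bases before the start. The promoters of Fdft1 and Sqle were not analysed here.

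In TAC hearts Hmgcs1 and Insig2 followed a 24-h curve with its peak late in the cycle, near ZT19, and in SHAM hearts Hmgcs1 followed one with its peak at ZT20.5. The peak stood above the trough by 1.38-fold in TAC and 1.28-fold in SHAM hearts for Hmgcs1, and by 1.19-fold in TAC hearts for Insig2. Idi1, Fdft1, Sqle, Srebf1 and Srebf2 did not pass in either surgery, and no member's rhythm or time course passed a test of the difference between TAC and SHAM. The rhythm test was a moderated F-test in limma, with a mean, a cosine and a sine per surgery fitted to all 36 arrays and Benjamini-Hochberg adjustment over all 12393 genes at 0.05. It called 2 of the 7 members in TAC hearts, where 4.35% of all genes were called, and 1 of 7 in SHAM hearts, where 5.58% of all genes were called. Without adjustment, 4 of 7 in TAC (19.8% of all genes) and 3 of 7 in SHAM (18.8% of all genes) had a p under 0.05. The difference of rhythm between surgeries was called for 0 of 7 members by limma, 0 also without adjustment, against 0.0484% of all genes (6.27% without adjustment).

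Some facts of the whole series bear on these values. Of 18 clock genes, 16 passed the rhythm test in TAC hearts and 16 in SHAM hearts, and the clock repressor Nr1d1 had an amplitude of 0.98 in TAC and 0.97 in SHAM hearts. The mean of 10 cardiomyocyte markers stayed between -0.16 and 0.12 among TAC arrays and between -0.10 and 0.06 among SHAM arrays, and that of 6 atrial markers between -1.01 and 0.49 among TAC and between -0.92 and 0.23 among SHAM arrays. Centred values cannot show whether a marker is present, only whether it varies. A pair of arrays stood apart: TAC ZT23 replicate 1, with a mean of 1.32 for 6 airway markers, and SHAM ZT11 replicate 3, with 2.26 for 5 thymocyte markers and 1.08 for 6 white adipocyte markers. Of the 8 white adipocyte markers listed, 6 were measured, and their mean ran from -0.42 to 1.06 among TAC arrays and from -0.39 to 1.08 among SHAM arrays. In whole tissue, fewer cells of a type and less RNA per cell cannot be told apart.

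Hmgcs1 makes HMG-CoA in the cytosol, the substrate of the rate-limiting step of sterol synthesis. At ZT03 its values were -0.25, -0.35 and 0.03 in TAC mice, against -0.03, -0.12 and -0.15 in SHAM mice. At ZT07 they were -0.04, -0.18 and -0.05 in TAC mice and -0.20, -0.30 and -0.08 in SHAM mice, and at ZT11 they were -0.01, -0.35 and -0.01 in TAC mice and -0.19, -0.10 and 0.08 in SHAM mice. In both surgeries these hours held most of the low values. At ZT15 the TAC mice spread from -0.17 through 0.03 to 0.42, against -0.02, -0.18 and -0.02 in SHAM mice. At ZT19 values were 0.27, 0.42 and 0.36 in TAC mice and 0.18, 0.11 and 0.19 in SHAM mice. At ZT23 they were 0.08, 0.05 and 0.22 in TAC mice and 0.23, 0.17 and 0.15 in SHAM mice. The 6 SHAM mice of ZT19 and ZT23 lay above the other 12 SHAM mice, whereas among TAC mice ZT15 replicate 3 reached the level of ZT19. Here and for the genes below, times set apart in this way were picked after seeing the values. The share of all genes with such a separation was not computed.

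The fitted amplitude of Hmgcs1, from the mean to the peak, was 0.23 ± 0.05 (SE) in TAC hearts and 0.18 ± 0.05 in SHAM hearts. The adjusted p of the limma rhythm test was 0.00646 in TAC and 0.0476 in SHAM. The curve peaked at ZT18.8 ± 0.77 h in TAC and ZT20.5 ± 1.01 h in SHAM hearts, a difference, TAC minus SHAM, of -1.66 ± 1.27 h (SE). The amplitudes differed by 0.06 ± 0.07, and the limma test of the difference of rhythm gave an adjusted p of 0.902. The TAC call was kept in the 36 fits that left out single arrays (adjusted p 0.00117 to 0.0283), but it was lost with the TAC arrays alone (0.0877), without replicate 2 of every group (0.218) and without replicate 3 of every group (0.0572). The SHAM call was lost in 21 of the 36 fits that left out an array (0.018 to 0.126), without each of the 3 replicate numbers (0.0706 to 0.326), with the probe set of the largest SD (0.205), with each array centred on its median (0.0615), and when the means of the atrial and of the white adipocyte markers entered the fit (0.0632). The atrial mean in TAC mice was -0.386, -0.974 and -1.011 at ZT23, where Hmgcs1 was above 0. In SHAM mice it was -0.357, -0.920 and -0.502 at ZT07, where Hmgcs1 was low, and 0.156, 0.134 and 0.186 at ZT19, where Hmgcs1 was high. At ZT23, where the SHAM mean of Hmgcs1 was highest (0.19), the atrial mean was -0.068, -0.347 and 0.229. Of the 6 atrial genes, 0 passed the limma rhythm test in TAC hearts (3 without adjustment) and 2 in SHAM hearts, Nppa with a peak at ZT18.9 and Bmp10 with a peak at ZT19.5. A limma F-test among the 6 time means called 3 of them in TAC (5.26% of all genes) and 1 in SHAM (3.37%). The part of atrial tissue in the Hmgcs1 values was not tested. The TAC spread around the group means was 0.179 and the SHAM spread 0.088, a ratio of 2.03. The fit of all 36 arrays gave both surgeries the same spread, so the SEs and p above do not reflect this difference. Across all genes the spread was higher in TAC than in SHAM for 71.9%, and among the members for 5 of 7.

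**Figure D1:**
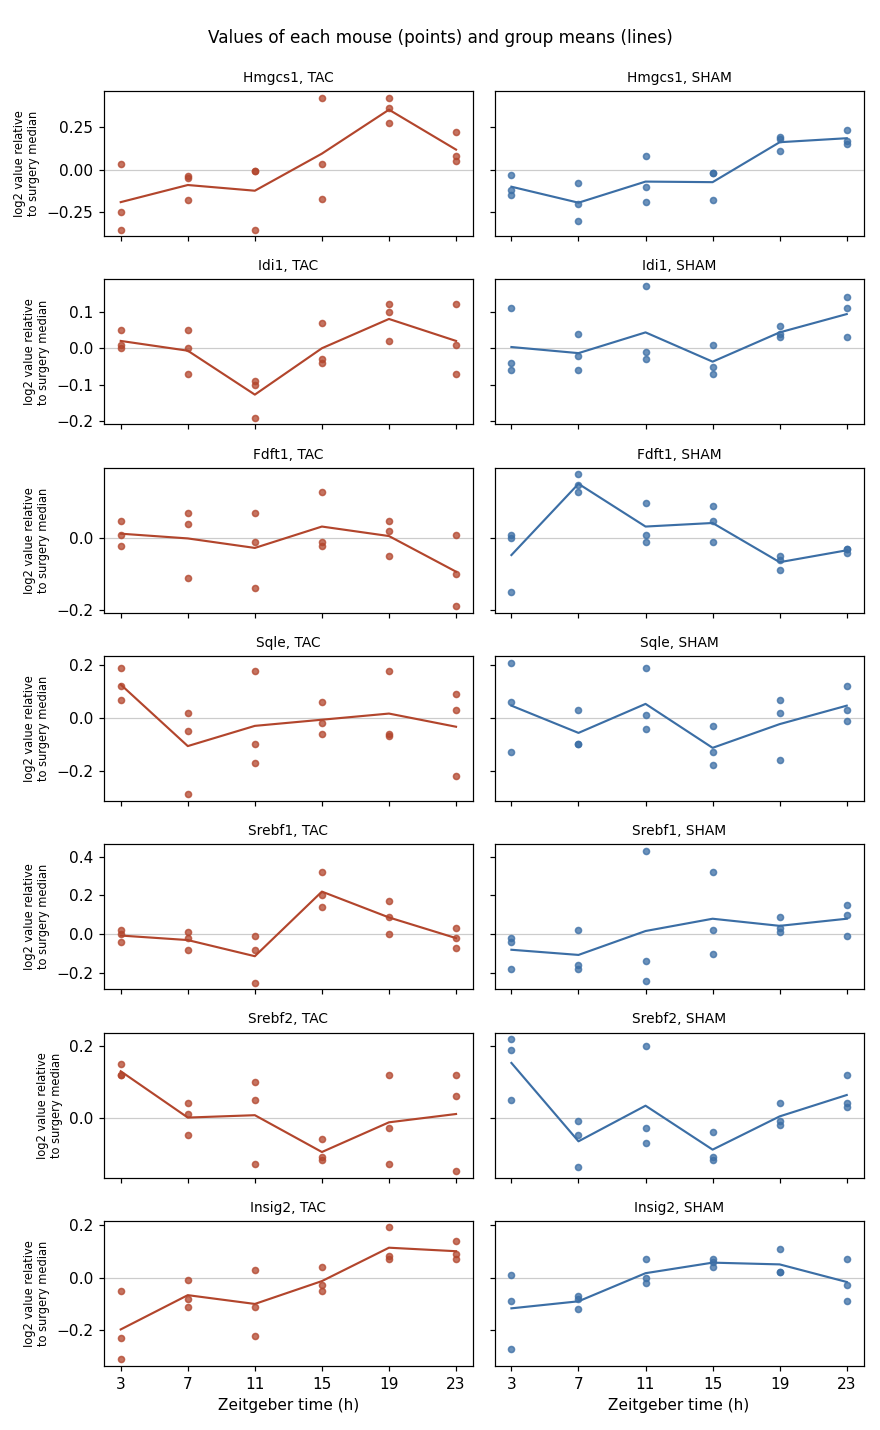
Values of the 7 measured genes in each mouse (points) and the group means (lines) against Zeitgeber time in hours, for TAC (left, red) and SHAM (right, blue), with 3 mice per time; the vertical axis is log2 relative to the median of the surgery. Hmgcs1 is high at ZT19 in both surgeries, and Insig2 is above 0 in all 6 TAC mice of ZT19 and ZT23.

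All 4 Hmgcs1 probe sets moved together, with Pearson's r between 0.64 and 0.88 over the 36 arrays. Their TAC amplitudes ran from 0.19 (1433446_at) to 0.30 (1433445_x_at), and their TAC peaks from ZT18.5 to ZT19.3. Tested by themselves over 20380 probe sets, 3 of the 4 passed in TAC hearts, with adjusted p of 0.0235, 0.0326 and 0.0165 in limma, and 1433444_at had 0.0695. In SHAM hearts all 4 missed the threshold, the nearest being 1433446_at with 0.0532. Of the 17 probe sets of the members, 4 were called in TAC, against 3.87% of all probe sets, and 0 in SHAM, against 4.44%. In SHAM, 1438322_x_at and 1448130_at of Fdft1, 1452174_at of Srebf2, 1417981_at of Insig2 and the 4 of Hmgcs1 had an unadjusted p under 0.05. The share of all probe sets with such a p was not computed, and over all genes it was 18.8%. Sets of the same gene are not separate findings.

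Idi1, the isomerase that interconverts the 5-carbon isoprenoid units, did not pass the rhythm test in either surgery. Its TAC values at ZT11 were -0.09, -0.19 and -0.10, and its TAC values at ZT19 were 0.02, 0.10 and 0.12. The 3 TAC mice of ZT11 were below the other 15 TAC mice. In SHAM hearts ZT11 held -0.01, -0.03 and 0.17, the last being the array with thymocyte and adipocyte markers, and ZT23 held 0.14, 0.11 and 0.03. Amplitudes were 0.07 ± 0.02 in TAC and 0.03 ± 0.02 in SHAM hearts (difference 0.03 ± 0.03), with adjusted p of 0.185 in TAC and 0.617 in SHAM by the limma rhythm test. Without the pair of arrays that stood apart, Idi1 passed in TAC hearts with an adjusted p of 0.0356. Its probe sets 1451122_at and 1423804_a_at correlated with r of 0.58, and the TAC amplitude was 0.10 in 1451122_at and 0.03 in 1423804_a_at.

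Fdft1, squalene synthase, joins farnesyl units in the reaction that commits carbon to sterols. In TAC hearts its group means stayed between -0.09 at ZT23 and 0.03 at ZT15. In SHAM hearts the ZT07 mice had 0.18, 0.13 and 0.15, and the ZT19 mice had -0.06, -0.09 and -0.05. Those 3 SHAM mice of ZT07 were the highest of the 18. The amplitude was 0.03 ± 0.03 in TAC and 0.08 ± 0.03 in SHAM hearts, a difference of -0.06 ± 0.04, and the adjusted p of the limma rhythm test was 0.808 in TAC and 0.114 in SHAM. Without the pair of arrays that stood apart the SHAM value was 0.0457.

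The 4 Fdft1 probe sets did not report the same pattern. 1438322_x_at and 1448130_at correlated with r of 0.67, and 1438918_at and 1438919_x_at with r of 0.59, but across the pairs r lay between -0.39 and -0.15. In SHAM hearts the first pair had means of 0.29 ± 0.12 (1438322_x_at) and 0.19 ± 0.03 (1448130_at) at ZT07 (SD, n = 3), with fitted peaks at ZT10.4 and ZT10.8. The other pair had SHAM means of 0.11 ± 0.03 (1438918_at) and 0.03 ± 0.11 (1438919_x_at) at ZT07, with fitted peaks at ZT5.56 and ZT2.11. The gene mean of Fdft1 averages these courses, and which transcripts each set reads was not tested.

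**Figure D2:**
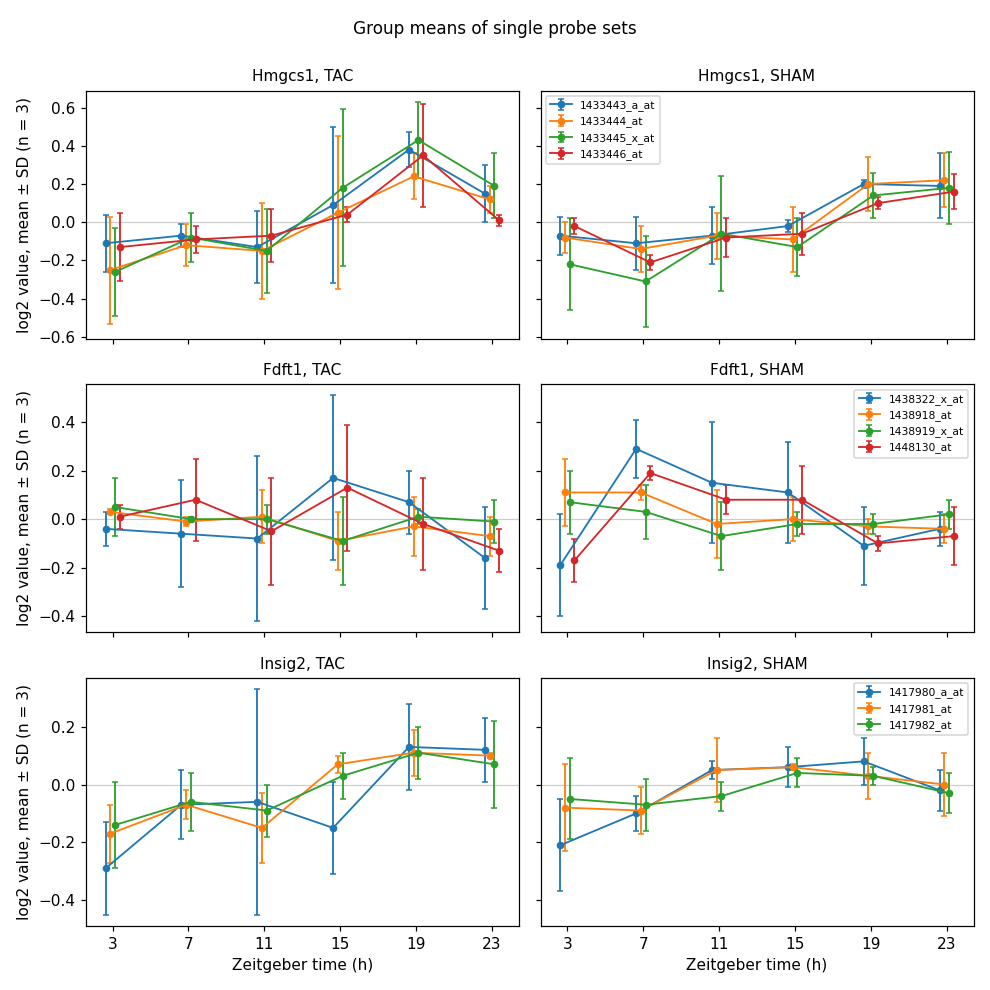
Group means ± SD (3 mice each) of every probe set of Hmgcs1, Fdft1 and Insig2 against Zeitgeber time in hours, with TAC on the left and SHAM on the right, on the log2 scale relative to the median of the surgery. The Hmgcs1 sets run close together, while at ZT07 in SHAM hearts the Fdft1 sets spread from 0.03 to 0.29.

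Sqle, squalene epoxidase, adds the oxygen that precedes ring closure and is a known control point of the pathway. Its spread between mice of the same surgery and time was 0.138 in TAC and 0.113 in SHAM hearts. At ZT03 its values were 0.19, 0.12 and 0.07 in TAC mice, against -0.13, 0.06 and 0.21 in SHAM mice. At ZT15 they were -0.02, -0.06 and 0.06 in TAC mice and -0.13, -0.18 and -0.03 in SHAM mice. All 3 TAC mice were above 0 at ZT03, and all 3 SHAM mice were below 0 at ZT15. The amplitude was 0.04 ± 0.04 in TAC and 0.05 ± 0.04 in SHAM hearts (difference -0.01 ± 0.06), with adjusted p of 0.798 in TAC and 0.718 in SHAM by the limma rhythm test.

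Srebf1 encodes the SREBP-1 proteins, of which the fatty acid genes are the best-known targets. At ZT11 its values were -0.25, -0.08 and -0.01 in TAC mice and -0.14, -0.24 and 0.43 in SHAM mice. At ZT15 they were 0.14, 0.32 and 0.20 in TAC mice and 0.02, -0.10 and 0.32 in SHAM mice. The TAC mice of ZT11 and ZT15, the times with the lowest and the highest TAC mean, did not overlap. The highest and the lowest SHAM mouse were both taken at ZT11. Amplitudes were 0.10 ± 0.05 in TAC and 0.09 ± 0.05 in SHAM hearts (difference 0.01 ± 0.06), with peaks at ZT17.5 in TAC and ZT17.9 in SHAM. The limma rhythm test gave adjusted p of 0.352 in TAC and 0.431 in SHAM.

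Srebf1 moved with white adipocyte markers in SHAM hearts by Pearson's r, though not by adjusted Spearman's rho. Among TAC mice its correlation with the mean of the 6 markers was r of 0.44 (permutation p = 0.0711, adjusted p = 0.379 over 14 relations, 7 genes in each surgery) and rho of 0.32 (permutation p = 0.191, adjusted p = 0.729). Among SHAM mice r was 0.73 (permutation p = 5.6e-04, adjusted p = 0.00784) and rho 0.61 (permutation p = 0.00803, adjusted p = 0.112). Without the 2 mice farthest from the median of the marker mean, r was 0.42 in TAC (permutation p = 0.103) and 0.61 in SHAM (permutation p = 0.0116). After subtracting the mean of each surgery and time, r was 0.22 in TAC and 0.71 in SHAM; the difference between surgeries was not tested. Thrsp is both an adipocyte marker and a fatty acid synthesis gene, and without it r was 0.37 in TAC and 0.70 in SHAM. No other member passed in either surgery: Hmgcs1, for example, had r of 0.28 in TAC and 0.39 in SHAM (adjusted p = 0.709 and 0.379 by permutation). After the same subtraction Hmgcs1 had r of 0.51 in TAC and 0.61 in SHAM, Idi1 0.07 and 0.45, and Srebf2 0.21 and 0.54. Fdft1 had 0.09 and 0.17, Sqle 0.03 and 0.12, and Insig2 0.16 and -0.46. These values were not tested, so a relation to the markers in Srebf1 alone was not shown. At ZT15, where Srebf1 was high in TAC hearts, the marker mean was 0.656, 0.659 and 0.976 in the 3 TAC mice. The TAC mouse with the highest marker mean, ZT11 replicate 3 (1.055), had a Srebf1 value of -0.01, and ZT19 replicate 2 (0.835) had 0.09. The part of fat in the Srebf1 values was not tested.

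**Figure D3:**
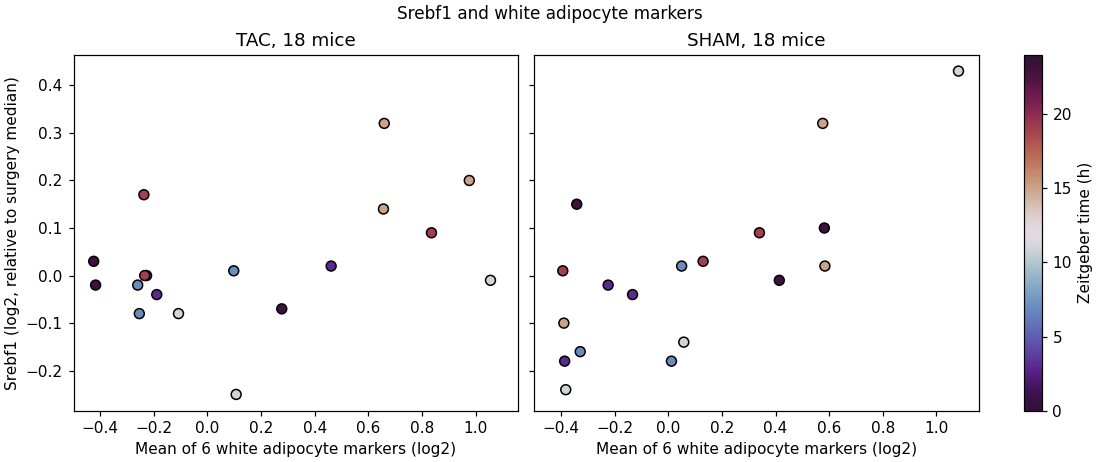
Srebf1 (vertical, log2 relative to the median of the surgery) against the mean of 6 white adipocyte markers (horizontal, log2), a point per mouse, coloured by Zeitgeber time in hours, for TAC (left) and SHAM (right). The SHAM mouse at the upper right is ZT11 replicate 3, at 1.08 for the markers and 0.43 for Srebf1.

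The spread of Srebf1 between mice of the same surgery and time was 0.077 in TAC and 0.185 in SHAM hearts, a ratio of 0.419. Only 105 of the 12393 genes (0.847%) had a ratio as low. Without the pair of arrays that stood apart the spreads were 0.079 in TAC and 0.119 in SHAM, and without SHAM ZT15 replicate 3 as well the SHAM value was 0.081; that mouse was left out because its Srebf1 value was high, so the spread had to fall. The white adipocyte mean was 1.08 in SHAM ZT11 replicate 3 and 0.576 in SHAM ZT15 replicate 3. It was 0.584 in SHAM ZT15 replicate 1 and 0.582 in SHAM ZT23 replicate 2, whose Srebf1 values were 0.02 and 0.10. The source of the wider SHAM spread was not tested.

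Srebf2 encodes SREBP-2, the main activator of the cholesterol synthesis genes. At ZT03 its values were 0.12, 0.15 and 0.12 in TAC mice and 0.05, 0.22 and 0.19 in SHAM mice. At ZT15 they were -0.12, -0.06 and -0.11 in TAC mice and -0.04, -0.12 and -0.11 in SHAM mice. The mice of ZT03 lay above those of ZT15 in each surgery. These were the times with the highest and the lowest mean, picked after seeing the values. The fitted amplitude was 0.08 ± 0.03 in TAC and 0.08 ± 0.03 in SHAM hearts, with peaks at ZT3.13 ± 1.49 h in TAC and ZT1.61 ± 1.51 h in SHAM, and the amplitudes differed by 0.00 ± 0.04. Neither passed the limma rhythm test (adjusted p of 0.251 in TAC and 0.277 in SHAM), although the SHAM value was 0.0267 without the pair of arrays that stood apart.

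Insig2, the inhibitor that keeps SCAP and SREBP in the endoplasmic reticulum, had its lowest mean at ZT03 in both surgeries. At ZT03 the TAC mice had -0.31, -0.23 and -0.05 and the SHAM mice 0.01, -0.09 and -0.27. At ZT07 the values were -0.11, -0.08 and -0.01 in TAC mice and -0.08, -0.12 and -0.07 in SHAM mice, and at ZT11 they were 0.03, -0.22 and -0.11 in TAC mice and 0.00, 0.07 and -0.02 in SHAM mice. By ZT11 the SHAM mice were thus near 0, with 1 of the 3 TAC mice above it. At ZT15 the TAC mice had -0.05, -0.03 and 0.04 and the SHAM mice 0.04, 0.06 and 0.07. At ZT19 values were 0.19, 0.08 and 0.07 in TAC mice and 0.02, 0.11 and 0.02 in SHAM mice, and at ZT23 they were 0.09, 0.14 and 0.07 in TAC mice and 0.07, -0.09 and -0.03 in SHAM mice. The 6 TAC mice of ZT19 and ZT23 were the highest of the 18 TAC mice, whereas the SHAM mice of ZT19 overlapped those of ZT11, ZT15 and ZT23.

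The Insig2 amplitude was 0.12 ± 0.03 in TAC and 0.09 ± 0.03 in SHAM hearts, and the limma rhythm test gave adjusted p of 0.0244 in TAC and 0.137 in SHAM. The peak was at ZT19.1 ± 0.90 h in TAC and ZT16.3 ± 1.23 h in SHAM hearts, a difference, TAC minus SHAM, of 2.85 ± 1.52 h. The amplitudes differed by 0.03 ± 0.04, and the limma test of the difference of rhythm gave an adjusted p of 0.863, so a call in TAC hearts and none in SHAM hearts does not show that the rhythms differed. The TAC call was lost without TAC ZT19 replicate 1 (adjusted p = 0.0848), with the TAC arrays alone (0.164), with the probe set of the largest SD (0.372) and without each of the 3 replicate numbers (0.0915 to 0.334). Conversely, Insig2 passed in SHAM hearts with the SHAM arrays alone (limma adjusted p = 0.039) and after quantile normalization (0.0155). It also passed there with array weights, default (0.015) or estimated gene by gene (0.0154). Of its 3 probe sets, 1417981_at passed by itself in TAC hearts (adjusted p = 0.0153), and the other 2 had 0.382 and 0.0864.

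**Figure D4:**
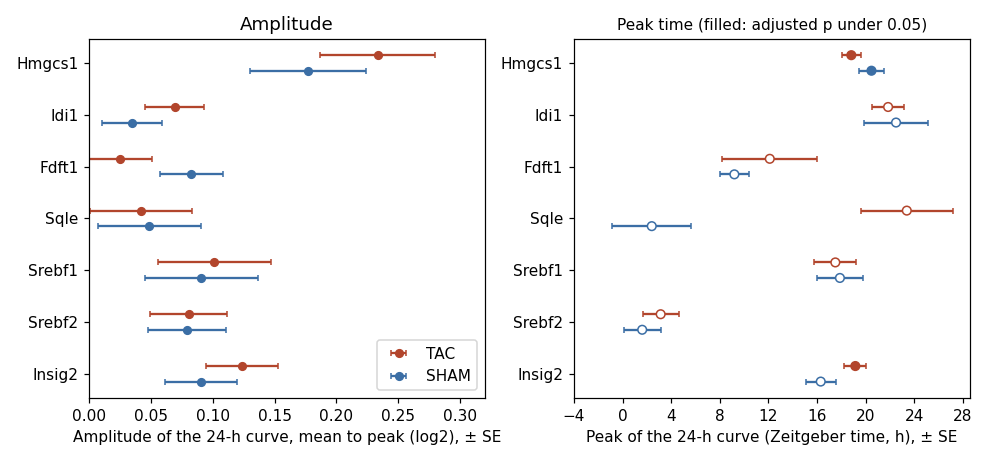
Amplitude (left, log2, mean to peak) and peak time (right, Zeitgeber hours, with values below 0 or above 24 wrapping round) of the fitted 24-h curves, ± SE, for each gene, with TAC in red above SHAM in blue; filled peak symbols mark an adjusted p under 0.05. Hmgcs1 is filled in both surgeries, at ZT18.8 in TAC and ZT20.5 in SHAM, and Insig2 in TAC, at ZT19.1.

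A test that assumes no curve, a limma F-test among the 6 time means, again called Hmgcs1 and Insig2 in TAC hearts (adjusted p = 0.0129 each), against 5.26% of all genes; without adjustment 3 members had a p under 0.05 in TAC, against 20.3% of all genes. In SHAM hearts it called 0 of 7, against 3.37% of all genes; without adjustment 3 had a p under 0.05, against 13.2% of all genes. The Hmgcs1 value in SHAM was 0.136 and the Insig2 value 0.413. Hmgcs1 passed in SHAM with the SHAM arrays alone (limma adjusted p = 0.00624), after quantile normalization (0.00292) and with the replicate block (0.0452). With array weights, default or estimated gene by gene, Hmgcs1 had 0.000284 and 0.00072 in SHAM, and Insig2 had 0.00401 and 0.0174. The difference of time course between TAC and SHAM was called for 0 of 7 members by limma, 0 also without adjustment, against 0.0161% of all genes (5.57% without adjustment). The TAC call of Hmgcs1 was lost without TAC ZT19 replicate 2 (adjusted p = 0.0549). Both TAC calls were lost with the TAC arrays alone (0.206 for Hmgcs1 and 0.142 for Insig2), with the probe set of the largest SD (0.0621 and 0.139), without replicate 1 of every group (0.0519 and 0.0823) and without replicate 2 of every group (0.672 and 0.587).

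Across mice, the members did not move as a single block. Correlations were computed for 21 pairs of genes in each surgery, 42 in all, over 18 mice each, and 6 passed after adjustment (permutation test with 100000 resamples), 2 in TAC and 4 in SHAM hearts. The mice were taken at different times, so a shared time course enters these values, and r of the deviations from the means of each surgery and time is given beside them. With the probe set of the largest SD for each gene, 0 of the 42 pairs passed.

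In TAC hearts Hmgcs1 correlated with Insig2, with r of 0.79 and rho of 0.85 (permutation adjusted p = 0.0063 and 0.0021), and r was 0.83 without the 2 mice farthest from the Hmgcs1 median and 0.55 for the deviations (permutation adjusted p = 0.116). Of all other genes measured, 199 (1.61%) had a higher r with Hmgcs1 in TAC hearts than Insig2 did. The pair passed in all 36 computations that left out an array (0.00126 to 0.0197), but not with the probe set of the largest SD (0.0764). Leaving out a SHAM array does not change r of a TAC pair, and moves its adjusted p only through the adjustment over the 42 values. In SHAM hearts the same pair had r of 0.38 and rho of 0.40 (permutation adjusted p = 0.254 and 0.256), and the difference between surgeries was not tested. Hmgcs1 and Idi1 in TAC hearts had r of 0.65 and rho of 0.62 (permutation adjusted p = 0.0311 and 0.0641), r of 0.57 without the farthest mice, and 0.66 for the deviations (permutation adjusted p = 0.0248). Here 869 genes (7.01%) had a higher r with Hmgcs1 than Idi1 did. This pair passed in 30 of the 36 computations that left out an array (0.0236 to 0.0995). In SHAM hearts Hmgcs1 and Idi1 had r of 0.60, with an adjusted p of 0.0506 by permutation.

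The 4 SHAM pairs were Hmgcs1 with Fdft1 (r of -0.63, rho of -0.70), Idi1 with Sqle (0.67 and 0.57), Idi1 with Srebf1 (0.67 and 0.63) and Sqle with Srebf2 (0.65 and 0.53). Their permutation adjusted p for r was 0.0404 for the first and 0.0311 for each of the other 3, and for rho it was 0.0253, 0.102, 0.0641 and 0.115 in the same order. Without the 2 farthest mice r was -0.56, 0.51, 0.46 and 0.41, with unadjusted permutation p of 0.0251, 0.0438, 0.073 and 0.118. For the 3 pairs with a positive r, the share of genes with a higher r with the first gene in SHAM hearts was 0.19%, 0.20% and 0.52%, and 97.8% of genes had a higher r with Hmgcs1 than Fdft1 did. For the deviations r was -0.23, 0.65, 0.79 and 0.51, with permutation adjusted p of 0.608, 0.03, 0.00546 and 0.119. SHAM ZT11 replicate 3, the array with thymocyte and adipocyte markers, was the highest SHAM mouse for Idi1 (0.17) and Srebf1 (0.43) and the second highest for Sqle (0.19) and Srebf2 (0.20). Without it 1 of the 42 pairs passed, Hmgcs1 with Insig2 in TAC. For the SHAM pairs the permutation adjusted p was then 0.0797 for Hmgcs1 with Fdft1, 0.0967 for Idi1 with Sqle, 0.13 for Idi1 with Srebf1 and 0.106 for Sqle with Srebf2. The adjusted p of Hmgcs1 with Idi1 in TAC was 0.0695, a change that came only from the adjustment, as TAC pairs do not use this array. Also 1 pair passed without SHAM ZT07 replicate 1, and 1 without SHAM ZT23 replicate 1.

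With the time course taken out in this way 6 of the 42 pairs passed, but 3 of them were not among the 6 above. These were Hmgcs1 with Fdft1 (r of 0.63, permutation adjusted p = 0.0404) and Idi1 with Fdft1 (0.72, 0.0129) in TAC hearts, and Hmgcs1 with Srebf1 (0.76, 0.00546) in SHAM hearts. Hmgcs1 with Idi1 in TAC hearts passed both ways. The sign of r changed for 8 of the 42 pairs, none of which passed either way; Srebf1 with Srebf2 in TAC hearts, for example, had r of 0.43 for the deviations and -0.18 before. Each of the 3 pairs among the enzymes Hmgcs1, Idi1 and Fdft1 thus passed in TAC hearts once the time course was removed. The remaining enzyme, Sqle, had r of -0.13 with Hmgcs1, 0.10 with Idi1 and -0.20 with Fdft1 for the TAC deviations. In SHAM hearts Hmgcs1 with Idi1, Hmgcs1 with Fdft1 and Idi1 with Fdft1 had 0.45, -0.23 and 0.01, and none passed. The share of all genes with as high an r for the deviations was not computed. Fdft1 enters its pairs as the mean of 4 probe sets that did not report the same pattern. Taking out the group means leaves 12 degrees of freedom among 18 mice, which the permutations do not count, so these p are too small.

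**Figure D5:**
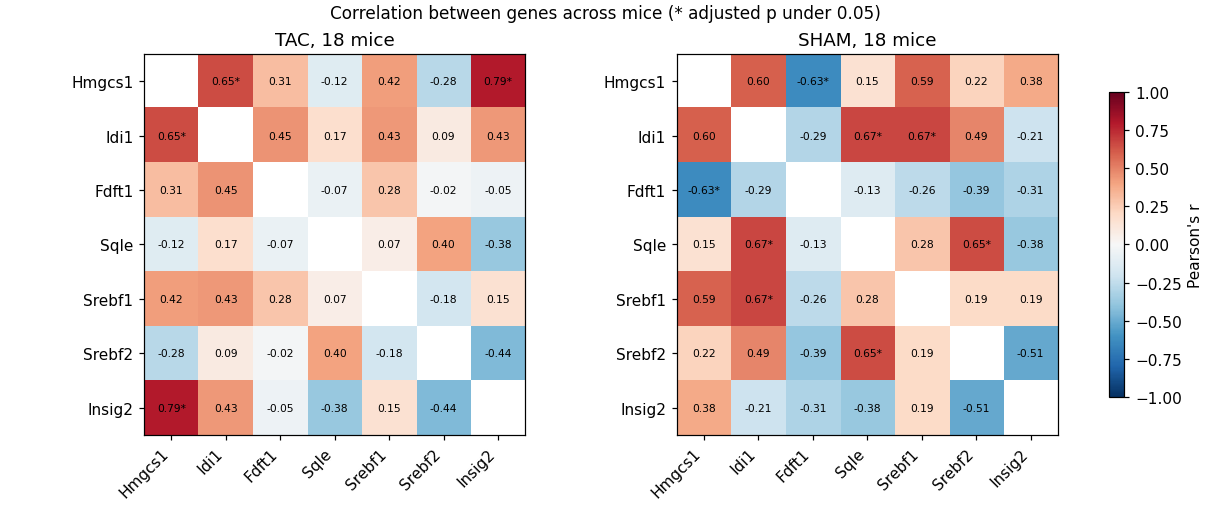
Pearson's r between the 7 genes over 18 TAC mice (left) and 18 SHAM mice (right), with colour and number giving r and an asterisk marking an adjusted p under 0.05 over the 42 values. Hmgcs1 and Insig2 have r of 0.79 in TAC and 0.38 in SHAM hearts.

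Over all 36 arrays, the genes whose values were most like each member's were taken by the highest Pearson's r, as a description. They were Elavl1 (0.85), Selenok (0.83) and Snap23 (0.82) for Hmgcs1, and Usp9x (0.91), Rab18 (0.90) and Rab7 (0.88) for Insig2. Srebf1 was most like Acly (0.81), Tkt (0.75) and Elovl6 (0.74), which encode ATP citrate lyase, transketolase and a fatty acid elongase. Idi1 was most like Sipa1 (0.70), Ets1 (0.69) and Ddx5 (0.69), and Fdft1 like Wdr45, Aox1 and Slc20a2 (0.72 each). For Sqle they were Rpl12 (0.69), Cldn10 (0.68) and Cenpk (0.67), and for Srebf2 Nrros (0.76), Col15a1 (0.72) and Kctd17 (0.69).

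Of 16 other enzymes of sterol synthesis, 13 were measured. By the limma rhythm test 1 passed in TAC (4.35% of all genes) and 1 in SHAM hearts (5.58% of all genes). Msmo1, a sterol methyl oxidase, had an amplitude of 0.09 ± 0.02 in TAC hearts with a peak at ZT20.8 (adjusted p = 0.0345), and 0.08 ± 0.02 in SHAM hearts (adjusted p = 0.0579). Hsd17b7, a sterol ketoreductase, had 0.04 ± 0.03 in TAC (adjusted p = 0.692) and 0.13 ± 0.03 in SHAM hearts with a peak at ZT4.02 (adjusted p = 0.0416). Ebp, Pmvk and Fdps, the next by unadjusted p, had TAC amplitudes of 0.10, 0.08 and 0.08 and adjusted p of 0.0832, 0.121 and 0.204 in limma. Their SHAM amplitudes were 0.05, 0.07 and 0.02, with adjusted p of 0.532, 0.263 and 0.868 by the same test. The median amplitude of the 13 was 0.058 in TAC and 0.048 in SHAM hearts, against 0.047 in TAC and 0.048 in SHAM hearts over all genes.

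Among genes that process SREBP or degrade its regulators, 4 of 8 were measured. The rhythm test called 1 in TAC (4.35% of all genes) and 0 in SHAM hearts (5.58% of all genes). Ube2g2, a ubiquitin-conjugating enzyme that acts in degradation of sterol-regulated proteins at the endoplasmic reticulum, had an amplitude of 0.13 ± 0.03 in TAC, with a peak at ZT19.1 (adjusted p = 0.00524), and 0.05 ± 0.03 in SHAM (adjusted p = 0.392) by limma. Scap, Mbtps1 and Erlin1 had TAC amplitudes of 0.05, 0.02 and 0.04, and the adjusted p in either surgery was 0.263 or more.

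In sterol uptake and transport, 3 of 7 measured genes (10 listed) passed the rhythm test in TAC hearts (4.35% of all genes) and 3 in SHAM hearts (5.58% of all genes). Mylip, the ligase that marks the LDL receptor for degradation, had an amplitude of 0.25 ± 0.05 in TAC and 0.32 ± 0.05 in SHAM hearts, with peaks at ZT11.0 in TAC and ZT11.1 in SHAM (limma adjusted p = 0.00279 in TAC and 6.83e-05 in SHAM). Osbp, a sterol transfer protein, had 0.14 ± 0.03 in TAC and 0.13 ± 0.03 in SHAM hearts, with peaks at ZT7.11 in TAC and ZT7.19 in SHAM (0.00268 in TAC and 0.00602 in SHAM). Npc1, which exports cholesterol from lysosomes, passed in SHAM hearts (amplitude 0.15 ± 0.06 in TAC, adjusted p = 0.281; 0.27 ± 0.06 in SHAM, 0.0154). Scarb1, a lipoprotein receptor, passed in TAC hearts (0.10 ± 0.02 in TAC, adjusted p = 0.0285; 0.04 ± 0.02 in SHAM, 0.515). Lipa, Stard4 and Npc2 had adjusted p of 0.228 or more in either surgery.

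Of 7 measured genes of LXR signalling and cholesterol export (8 listed), 0 passed in TAC and 0 in SHAM hearts by limma, and without adjustment 2 had a p under 0.05 in TAC (19.8% of all genes) and 2 in SHAM (18.8% of all genes). Abca1, the cholesterol exporter, came closest in TAC, with amplitudes of 0.14 ± 0.04 in TAC and 0.13 ± 0.04 in SHAM and adjusted p of 0.0791 in TAC and 0.109 in SHAM. Cyp27a1, a sterol hydroxylase, had adjusted p of 0.274 in TAC and 0.0812 in SHAM, and Nr1h3, the LXR-alpha gene, 0.194 in TAC and 0.989 in SHAM.

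All 15 fatty acid targets listed for SREBP-1 were measured, and 2 passed in TAC (4.35% of all genes) and 2 in SHAM hearts (5.58% of all genes). Mid1ip1, an activator of acetyl-CoA carboxylase, passed in both, with an amplitude of 0.47 ± 0.07 in TAC (limma adjusted p = 0.000119) and 0.59 ± 0.07 in SHAM (1.47e-06), and peaks at ZT12.3 in TAC and ZT14.4 in SHAM. Thrsp, also on the adipocyte marker list, had 0.70 ± 0.17 in TAC (adjusted p = 0.0376) and 0.40 ± 0.17 in SHAM (0.334). Scd2, a desaturase, had 0.26 ± 0.08 in TAC (0.12) and 0.31 ± 0.08 in SHAM (0.0476). Gpam, which starts glycerolipid synthesis, passed the test of any shape in SHAM hearts (adjusted p = 0.834 in TAC and 0.0268 in SHAM). Scd1, Fasn and Acly had amplitudes of 0.97, 0.88 and 0.24 in TAC and 0.73, 0.61 and 0.19 in SHAM, with wide errors (SE of 0.34, 0.31 and 0.09), and none of these 3 passed (adjusted p of 0.179 or more in either surgery). The limma tests of a difference between TAC and SHAM, in rhythm or in time course, called 0 genes of these 5 lists; without adjustment a p under 0.05 for the rhythm difference was seen in 2 of the 13 other enzymes, 1 of the 4 processing genes and 1 of the 15 fatty acid targets (6.27% of all genes), and for the time course in 2 of the 13 and 2 of the 15 (5.57% of all genes).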

How the data were processed

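Left ventricular RNA of 36 mice was labelled with biotin and hybridised to single-channel Affymetrix arrays, per the labels' protocols. The deposited table held values, read here as log2, that were already centred: each of 22690 probe sets had a median within 1e-06 of 0 over the arrays of each surgery; neither the log base nor the summarisation and normalization steps could be read from the labels. Probe sets were named from the platform annotation: 20393 had 1 symbol, 691 had several and 1606 had none; after removal of 13 control sets, 20380 were averaged by symbol into 12393 genes. Surgery, time and replicate came from the titles. Each of the 3 mice per group was a separate animal, and precision is limited by that number; no 2 arrays were identical. Rhythm and time-course models were fitted with limma 3.58.1 in R 4.3.3 on all arrays (eBayes, no trend), tested on simulated data, and adjusted by Benjamini-Hochberg over all genes at 0.05. SEs of amplitude and peak came from the delta method, with the same residual spread taken for TAC and SHAM hearts. Correlations used permutation in numpy 2.4.6, with ranks from scipy 1.17.1. Promoters are from the RefSeq table of GRCm38.p6. All measured members are named; of each other list, the genes passing any of the 6 tests and up to 3 more with the smallest unadjusted p; and for each member the 3 most correlated genes, clone names skipped. The members and lists were chosen with earlier results of these data known. Alternatives were normalization, array weights, eBayes options, replicate block, sample sets, probe-set choice, an SD filter, marker covariates and arrays left out.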

Additional observations from a re-analysis of the deposited data

How the results depend on the processing

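Counts are of the 7 members called unless said otherwise; no correlation that passed in the reported fit or under an alternative changed sign, and where a call changed the cause was not tested. With only the arrays of the surgery tested, rhythm gave 0 in TAC and 2 in SHAM, and change of any shape 0 in TAC and 2 in SHAM. With the probe set of the largest SD these were 1 (rhythm in TAC), 0 (rhythm in SHAM) and 0 (any shape in TAC), and 0 of the 42 correlations passed. SHAM rhythm gave 3 after quantile normalization, 0 with each array centred on its median, 3 without the 2 outlying arrays, 0 with atrial and adipocyte means as covariates, and 0 with each probe set tested by itself. Quantile normalization gave 2 for any shape in SHAM. Default array weights, whose estimation stopped before convergence, gave 4 for SHAM rhythm, 5 for any shape in TAC, 5 in SHAM, and 2 for the difference of time course (adjusted p of 0.0409 for Hmgcs1 and 0.00755 for Insig2). Weights estimated gene by gene, chosen after seeing those values, gave 4 for SHAM rhythm, 4 for any shape in SHAM and 0 for that difference. The white adipocyte mean as the lone covariate, also added after seeing the data, changed none of the 6 counts of members by over 1.5 times. Leaving out arrays or replicate numbers gave 0 to 2 for TAC rhythm, 0 to 1 for SHAM rhythm, 0 to 2 for any shape in TAC, 0 to 1 in SHAM, and 1 to 9 correlations. Without the 2 outlying arrays 1 correlation passed. Replicate numbers were not taken as pairing: of 18 TAC and SHAM pairs of the same time and number, 4 had a correlation of deviations above 0.1 (range -0.214 to 0.357). The replicate block gave 1 for any shape in SHAM (Hmgcs1, 0.0452) and 3 correlations, and changed no other count of members. Over all genes, TAC rhythm gave 539 in the reported fit, 142 with TAC arrays alone and 116 to 267 without a replicate number. SHAM rhythm gave 692 as reported, 1166 with SHAM arrays alone, 1423 after quantile normalization, 1976 and 1974 with the 2 kinds of weights, and 119 to 421 without a replicate number. Change of any shape gave 652 in TAC (38 to 4969 over settings) and 418 in SHAM (34 to 3619). The difference of rhythm gave 6 (0 to 13) and that of time course 2 (0 to 1730, or 338 with gene-by-gene weights). Signal over background could not be judged from centred values.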
